A study of Homo sapiens with 21 samples.

Results

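This account sets libraries labelled as StAMP-resistant OCI-AML3 cells against parental K562 cells sequenced in the same batch. The members are the 6 libraries of the 2 groups, 3 each, out of 21 libraries in the series, and all genes of those libraries that passed a low-count filter, 13006 of the 28008 genes counted. The libraries called resistant 1 carry the cell line label OCI-AML3, the genotype label Res and the treatment label StAMP. The K562 parental libraries carry the genotype label WT and no treatment. As background, 2 more groups of the same batch served, OCI-AML3 cells given DMSO vehicle and untreated OCI-AML3 parental cells, both labelled WT. StAMP is not spelled out in the labels, and the title of the series names stapled oncolytic peptides, membrane cholesterol and inflammatory signalling. Not given in the sources used here were growth, dosing and selection of the cells, and whether the 3 libraries of a group came from separate cultures. All p-values therefore measure only the spread between these libraries.

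K562 is an established line from the blast phase of a chronic myeloid leukaemia, driven by the BCR-ABL1 fusion kinase. It keeps traits of the shared precursor of red cells and megakaryocytes: it transcribes embryonic and fetal globins and heme enzymes, and it can be pushed toward either lineage. OCI-AML3 is an established acute myeloid leukaemia line of monocytic character that lacks the erythroid programme. Cholesterol, which sets how ordered and how permeable a plasma membrane is, is made by a chain of enzymes whose genes are switched on together by SREBP factors when sterols run low and held down through INSIG proteins when they do not.

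The libraries labelled resistant did not carry an OCI-AML3 profile. Across 10807 genes, Pearson correlations of log2 levels were 0.979 to 0.981 between resistant 1 and K562 parental libraries, 0.508 to 0.514 between resistant 1 and OCI-AML3 parental libraries, and 0.997 to 0.998 within each of the resistant 1 and K562 groups. Genes are not independent replicates, so these values carry no test. Of 128 genes at 10 CPM or more (counts per 1000000 counts, scaled by TMM over the 12 libraries of the batch) in each OCI-AML3 library and at 0 counts in K562, 50 had 0 counts in resistant 1 as well, 60 had 1 to 3 counts over the 3 libraries, and 0 had more than 10. Their summed level in the resistant 1 libraries was 0.0485 to 0.0809% of the OCI-AML3 level. Globins with their chaperone summed to 3306 to 3693 CPM in resistant 1 and 3311 to 3456 CPM in K562, against 0 to 0.238 CPM in OCI-AML3 parental libraries. Total counts were 14066821 to 20117285 in resistant 1 and 14550367 to 19041929 in K562 libraries. Both sides of the comparison thus have a K562-like profile while their labels name different lines, and the line, genotype and treatment labels differ together, so their parts cannot be told apart.

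Many genes differed between the groups, most of them by little. edgeR's quasi-likelihood test with Benjamini-Hochberg adjustment, which gives every adjusted p below, called 59.8% of the genes tested (7776), of which 4069 were higher in resistant 1 (31.3%) and 3707 lower (28.5%). Of the called genes, 5330 (68.5%) differed by less than 1.5-fold. At 2-fold or more, 9.6% of genes were called, of which 1049 were higher (8.07%) and 199 lower (1.53%). The median log2 fold change of all genes, resistant 1 over K562, was 0.011, and the biological coefficient of variation between replicates was 4.29%, so small differences passed the test. Against a 1.5-fold change in place of no change, 1085 genes were higher and 225 lower, so a call given below with a log2 fold change under 0.58 in size rests on the test against no change, and some calls above that size do too, since they did not pass the test against 1.5-fold. In bulk libraries fewer cells with a transcript and less of it per cell cannot be told apart. Counts of called genes given below for lists are to be read beside the 31.3% higher and 28.5% lower of all genes.

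Past 2-fold, higher genes outnumbered lower ones in every sixth of genes by mean level, and most of both lay at low levels. In the lowest sixth of genes by mean level, 0.374 to 2.90 CPM, the median log2 fold change was 0.36, with 607 genes higher and 138 lower by at least 2-fold. The next 4 sixths, by rising level, held 290 and 41, 91 and 11, 40 and 3, and 17 and 4 genes higher and lower by at least 2-fold. In the highest sixth, from 113 CPM upward, the median was -0.11, with 4 genes higher and 2 lower by at least 2-fold. With genes split in 3 by transcript length, medians lay between -0.015 and 0.025, and by GC content between -0.015 and 0.026. Among the 66 small nucleolar RNA genes tested, 0 were called higher and 24 lower, with a median of -0.55. These RNAs lie in introns of host genes, and an mRNA library holds them only in part.

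**Figure D1:**
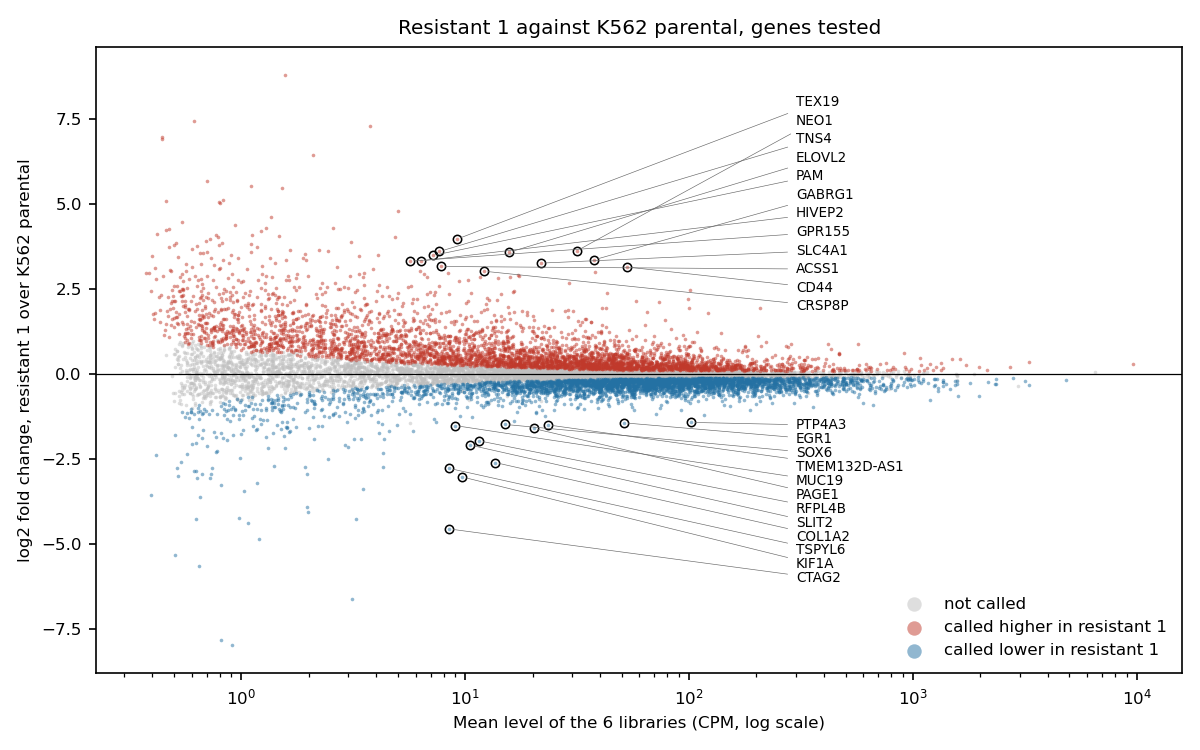
Each point is 1 of the 13006 genes tested; the x axis is the mean level of the 6 libraries in CPM on a log scale and the y axis the log2 fold change of resistant 1 over K562 parental. Circles mark the 12 higher and 12 lower genes named by level and fold change, and the points past 2-fold lie mostly at low levels and above 0.

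Genes of at least 10 CPM whose libraries did not overlap between the groups were ranked by fold change. Of all genes tested, 31.4% lay apart on the higher side and 32.3% on the lower. Among the ranked genes, the 12 with the greatest rise included surface receptors and lipid enzymes. TEX19, a gene of germ cells and early placenta, had 17.6, 17.8 and 16.5 CPM in the resistant 1 libraries and 1.03, 1.36 and 0.949 CPM in the K562 libraries (log2 fold change 3.97 ± 0.15 (SE), adjusted p = 2.86e-15). Its groups lay far apart, and both OCI-AML3 groups were at 0 to 0.392 CPM. NEO1, which encodes neogenin, a receptor for netrins and repulsive guidance molecules, had 56.5, 55.9 and 63.2 CPM in resistant 1 and 3.98, 5.77 and 4.48 CPM in K562 (log2 fold change 3.63 ± 0.098 (SE), adjusted p = 1.04e-17). GABRG1, a subunit of the GABA-A receptor channel, had 74.3, 61.9 and 69.7 CPM in resistant 1, against 6.93, 7.50 and 5.90 CPM in K562 (log2 fold change 3.37 ± 0.092 (SE), adjusted p = 1.04e-17). GABRG1 was at 0 counts in all 6 OCI-AML3 libraries of the batch.

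CD44, the hyaluronan receptor and carrier of the Indian blood group, had 97.2, 92.3 and 94.9 CPM in resistant 1 and 11.7, 10.5 and 10.3 CPM in K562 (log2 fold change 3.15 ± 0.068 (SE), adjusted p = 5.89e-19). Every resistant 1 library was above every K562 library, and the OCI-AML3 libraries were higher still at 344 to 549 CPM. SLC4A1 encodes band 3, the anion exchanger that anchors the red cell membrane skeleton. Its level was 40.0, 40.7 and 37.2 CPM in resistant 1 and 4.53, 4.22 and 3.74 CPM in K562 (log2 fold change 3.27 ± 0.095 (SE), adjusted p = 3.35e-17). ELOVL2, which elongates polyunsaturated fatty acids, had 29.0, 28.5 and 29.5 CPM in resistant 1 and 2.20, 2.79 and 2.32 CPM in K562 (log2 fold change 3.59 ± 0.11 (SE), adjusted p = 7.58e-17). The libraries of a group hardly differed for these 3 genes, and the gap between groups was many times their spread.

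The other 6 of these genes were of varied function. TNS4 and PAM were called higher by 3.61 and 3.49 on the log2 scale. TNS4 encodes tensin 4, which binds integrins, and PAM amidates secreted peptides. HIVEP2 (log2 fold change 3.33) encodes a zinc finger factor that binds kappa B-like sites, and GPR155 (3.32) a lysosomal membrane protein that senses cholesterol. ACSS1 (3.17) makes acetyl-CoA from acetate in mitochondria. CRSP8P (3.03) is a pseudogene, whose reads may be shared with its parent gene. In these 6 genes the resistant 1 libraries spanned 9.86 to 23.1 CPM and the K562 libraries 0.868 to 3.50 CPM.

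The 12 genes with the greatest fall under the same conditions held antigens of germ cells, secreted and matrix genes and an erythroid repressor. CTAG2, a cancer-testis antigen on the X chromosome, had 0.663, 0.537 and 0.878 CPM in resistant 1 and 16.1, 16.6 and 16.1 CPM in K562 (log2 fold change -4.55 ± 0.16 (SE), adjusted p = 1.4e-15). KIF1A, a kinesin that carries vesicles along axons, had 2.04, 2.36 and 1.89 CPM in resistant 1 and 16.7, 16.9 and 18.4 CPM in K562 (log2 fold change -3.02 ± 0.13 (SE), adjusted p = 2.43e-14). COL1A2, a chain of type I collagen, had 3.93, 3.97 and 3.51 CPM in resistant 1 and 22.4, 24.5 and 23.5 CPM in K562 (log2 fold change -2.60 ± 0.10 (SE), adjusted p = 1.07e-14). No resistant 1 library of the 3 genes came near the lowest K562 library. SLIT2, a guidance ligand of ROBO receptors, was at 4.17, 2.95 and 4.93 CPM in resistant 1 and 16.3, 18.1 and 16.8 CPM in K562 (log2 fold change -2.09 ± 0.13 (SE), adjusted p = 1.62e-11).

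SOX6, which works with BCL11A to silence fetal globin genes, had 9.43, 6.33 and 7.77 CPM in resistant 1 and 24.4, 22.1 and 20.5 CPM in K562 (log2 fold change -1.48 ± 0.11 (SE), adjusted p = 4.49e-10). BCL11A itself was too low to be tested. PTP4A3, a phosphatase tied to metastasis, had 51.4, 61.3 and 51.8 CPM in resistant 1 and 155, 145 and 145 CPM in K562 (log2 fold change -1.42 ± 0.060 (SE), adjusted p = 2.38e-14). EGR1, an immediate early transcription factor, had 26.2, 27.0 and 29.3 CPM in resistant 1 and 89.2, 61.7 and 73.5 CPM in K562 (log2 fold change -1.43 ± 0.12 (SE), adjusted p = 4.61e-06), with the K562 libraries more spread than the resistant ones. The remaining 5 were TSPYL6 (-2.77), RFPL4B (-1.96), PAGE1 (-1.60), MUC19 (-1.51) and TMEM132D-AS1 (-1.49), on the log2 scale. MUC19 had 18.3, 9.55 and 12.3 CPM in the K562 libraries, the widest spread of the 12. TMEM132D-AS1 is an antisense gene, and since the strand setting of the counting is not given, its reads cannot be told from those of its partner.

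**Figure D2:**
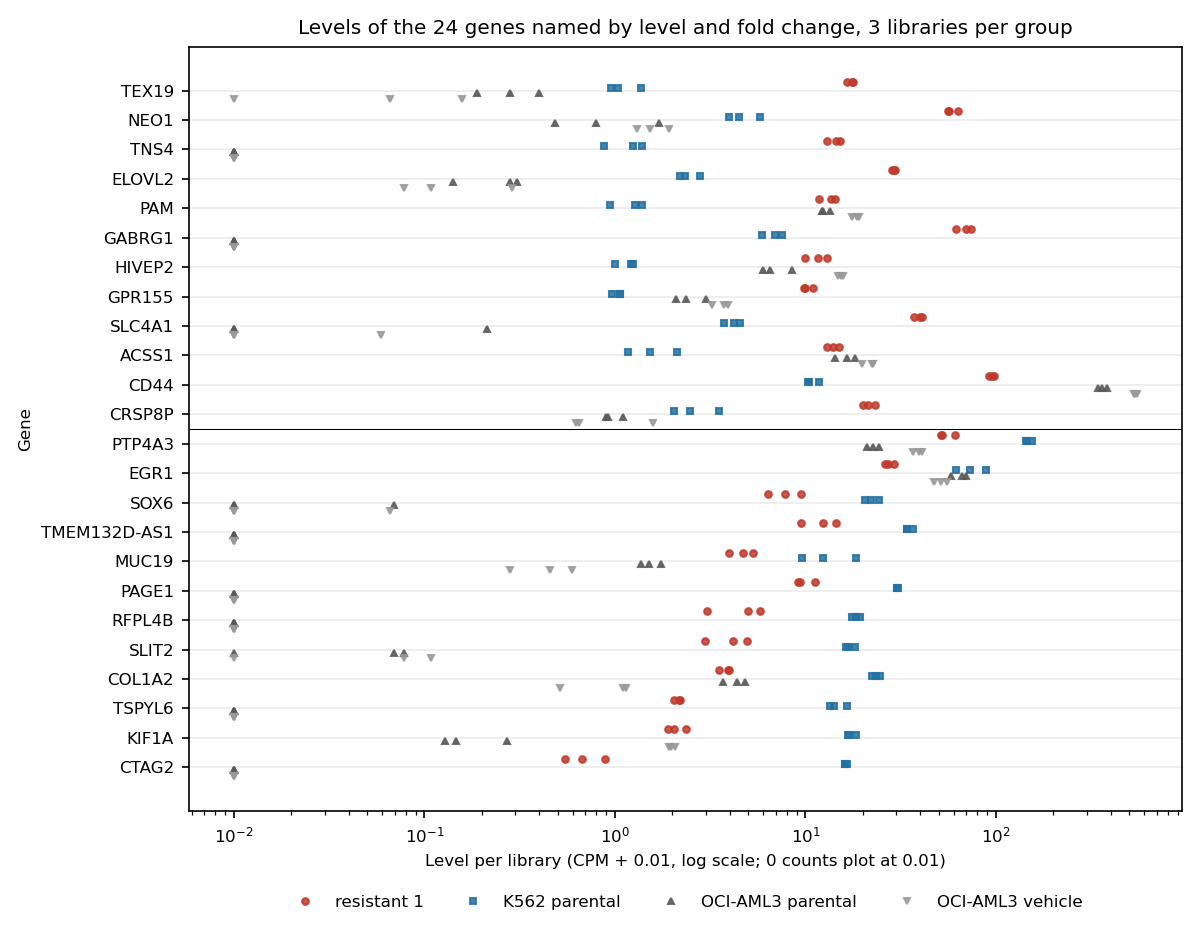
Levels per library in CPM plus 0.01 on a log axis for the 12 higher (above the line) and 12 lower genes, with 3 points per group for resistant 1, K562 parental, OCI-AML3 parental and OCI-AML3 vehicle. Resistant 1 and K562 points do not overlap in any of the 24 genes, and GABRG1, TNS4, CTAG2, PAGE1, RFPL4B, TSPYL6 and TMEM132D-AS1 sit at 0 counts in all 6 OCI-AML3 libraries.

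Among genes of at least 100 CPM in the higher group, ACSM3, a mitochondrial enzyme that activates medium-chain fatty acids, had 339.6, 320.4 and 326 CPM in resistant 1 and 83.5, 86.9 and 89.4 CPM in K562 (log2 fold change 1.94 ± 0.046 (SE), adjusted p = 1.56e-18). DCAF4L2, a testis-expressed gene, had 175, 162 and 173 CPM in resistant 1 and 29.0, 34.2 and 29.9 CPM in K562 (log2 fold change 2.47 ± 0.060 (SE), adjusted p = 1.93e-18). Both transcripts were nearly absent from OCI-AML3, at 0.588 to 1.40 CPM for ACSM3 and 0 counts in every library for DCAF4L2. FYB1, an adaptor of immune receptor signalling (2.22), SLC7A8, an amino acid exchanger (2.13), IGFBP4, which binds insulin-like growth factors (1.95), and DOCK2, an activator of the small GTPase RAC (1.82), were also higher. On the lower side, RELN, the secreted glycoprotein reelin, had 67.4, 68.3 and 75.2 CPM in resistant 1 and 173, 156 and 163 CPM in K562 (log2 fold change -1.21 ± 0.053 (SE), adjusted p = 4.65e-14). CDK6, a kinase of the G1 phase, had 245, 224 and 253 CPM in resistant 1 and 487, 476 and 468 CPM in K562 (log2 fold change -0.97 ± 0.045 (SE), adjusted p = 9.96e-14). DSG2, a desmosomal cadherin (-1.06), MEPCE, which caps the 7SK RNA (-1.05), and SRM, spermidine synthase (-0.92), were lower too. The abundant genes thus held rises of up to 5.53-fold and falls of at most 2.67-fold.

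Heme synthesis moved mostly upward. Of 14 genes tested, 11 were higher (78.6%, beside 31.3% of all genes) and 2 lower, with a median log2 fold change of 0.35 beside 0.011 for all genes. ALAS2, the erythroid enzyme of the first and rate-limiting step, had 118, 119 and 113 CPM in resistant 1 and 41.1, 38.7 and 38.2 CPM in K562 (log2 fold change 1.59 ± 0.053 (SE), adjusted p = 3.87e-16). CPOX (0.71 ± 0.054, SE), UROS (0.69 ± 0.067) and the mitochondrial iron importer SLC25A37 (0.53 ± 0.041) followed on the log2 scale. UROD, which acts between UROS and CPOX, went the other way with 241, 255 and 234 CPM in resistant 1 and 389, 370.2 and 378 CPM in K562 (log2 fold change -0.62 ± 0.043 (SE), adjusted p = 6.42e-11), and so did SLC25A38, the glycine carrier (-0.20 ± 0.057).

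Erythroid membrane genes split. Of 25 tested, 12 were higher and 9 lower, with a median of 0.054. The rises were large and the falls small. AQP1, the water channel of the Colton blood group, had 71.7, 68.5 and 61.5 CPM in resistant 1 and 7.62, 7.63 and 9.96 CPM in K562 (log2 fold change 3.00 ± 0.090 (SE), adjusted p = 4.94e-17), and EPB42, protein 4.2, which binds band 3 to the skeleton, had 6.26, 5.85 and 5.61 CPM in resistant 1 and 3.02, 3.10 and 2.11 CPM in K562 (log2 fold change 1.15 ± 0.16 (SE), adjusted p = 3.62e-06). Together with SLC4A1 and CD44, given above, these were the 4 greatest rises of the list. The 4 greatest falls were GYPB (-0.54 ± 0.079), ICAM4 (-0.49 ± 0.066), RHAG (-0.39 ± 0.039) and KEL (-0.36 ± 0.075), each a carrier of a blood group or a partner of one. Reads of GYPB and GYPE can be shared, as their sequences are near copies. The summed level of the list was 3132 to 3179.8 CPM in resistant 1 and 3255 to 3296 CPM in K562.

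ALAS2 and EPB42, which were both higher in resistant 1, are shown with the 250 bases before their annotated start, since promoters of red cell genes often carry sites for GATA factors; they were chosen after motif matches were seen. Sequences are RefSeq's on GRCh38.p14, written 5′ to 3′ on the gene's strand, ALAS2 from chrX:55030978-55031227, minus strand, and EPB42 from chr15:43221019-43221268, minus strand. Capitals mark each AGATAA or its complement TTATCT.
ALAS2: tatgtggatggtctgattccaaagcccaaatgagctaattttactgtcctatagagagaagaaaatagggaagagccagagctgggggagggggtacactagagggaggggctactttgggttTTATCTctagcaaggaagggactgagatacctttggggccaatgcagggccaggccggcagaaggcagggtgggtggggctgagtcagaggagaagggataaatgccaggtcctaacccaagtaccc
EPB42: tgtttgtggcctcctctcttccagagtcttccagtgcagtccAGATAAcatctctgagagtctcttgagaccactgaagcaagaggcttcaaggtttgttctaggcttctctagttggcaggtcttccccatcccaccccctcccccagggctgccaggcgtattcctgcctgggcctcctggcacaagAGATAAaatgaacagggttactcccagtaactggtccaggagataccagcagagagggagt
ALAS2 held 1 such run, whose first base lay 127 bases before the start, and EPB42 held 2, at 208 and 61 bases. The motif was found on either strand in 9.17% of the 35116 promoters of the table at this length, and in 11.1% of its 27305 genes when any promoter of a gene counts. Counted by gene, it was present in 7 of the 19 tested red cell membrane genes that the table lists and in 3 of the 11 heme genes. SLC4A1 and AHSP are named only. A run of these letters is a description and not a binding site.

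Among globin genes the embryonic members and the chaperone were higher. Of 10 tested, 5 were higher and 1 lower, with a median of 0.23. AHSP, which holds free alpha globin, had 14.0, 15.5 and 14.4 CPM in resistant 1 and 7.76, 6.26 and 7.43 CPM in K562 (log2 fold change 1.05 ± 0.11 (SE), adjusted p = 3.21e-08). HBD (0.53 ± 0.076), the embryonic HBZ (0.50 ± 0.058) and the embryonic HBE1 (0.30 ± 0.042) were higher. HBG2, a fetal gamma globin, was lower (-0.24 ± 0.037) while its near-identical neighbour HBG1 stood at 0.067 ± 0.070 and was not called, and counts of the pair, as of HBA1 and HBA2, can exchange reads. The list summed to overlapping totals in the groups, as given above.

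Regulators of the lineage went both ways. Among 21 tested, 8 were higher and 9 lower, with a median of 0.057, close to that of all genes. FOXO3, a factor of late red cell maturation, had 76.4, 71.6 and 73.9 CPM in resistant 1 and 43.9, 48.2 and 45.0 CPM in K562 (log2 fold change 0.71 ± 0.056 (SE), adjusted p = 6.3e-10). ZFPM1, the GATA1 cofactor FOG1 (0.71 ± 0.098), HEMGN (0.48 ± 0.046) and LMO2 (0.39 ± 0.045) were higher. GATA2 (-0.38 ± 0.044), TAL1 (-0.30 ± 0.044) and NFE2 (-0.28 ± 0.042) were lower, beside SOX6. KLF1, at 0.12 ± 0.058, and GFI1B, at 0.073 ± 0.055, were not called. Of 15 iron genes, 3 were higher and 5 lower and the transferrin receptor TFRC, at -0.23 ± 0.041, was among the lower.

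Megakaryocyte and platelet genes were detected in part, 14 of 28 passing the filter. Of these, 8 were higher (57.1%, beside 31.3% of all genes) and 1 lower (7.14%, beside 28.5%), with a median of 0.57. ITGA2B, the alpha IIb chain of the platelet fibrinogen receptor, had 67.4, 80.0 and 67.8 CPM in resistant 1 and 14.7, 13.3 and 13.6 CPM in K562 (log2 fold change 2.39 ± 0.079 (SE), adjusted p = 2.97e-16). Its partner ITGB3 had 7.25, 8.10 and 7.77 CPM in resistant 1 and 2.47, 2.23 and 2.21 CPM in K562 (log2 fold change 1.76 ± 0.15 (SE), adjusted p = 1.8e-09), and THBS1, thrombospondin 1 of the alpha granules, had 16.3, 16.0 and 16.2 CPM in resistant 1 and 2.95, 2.73 and 1.74 CPM in K562 (log2 fold change 2.75 ± 0.14 (SE), adjusted p = 4.98e-13). GP6, the platelet collagen receptor, ran against them with 6.40, 6.33 and 6.01 CPM in resistant 1 and 15.7, 14.6 and 15.6 CPM in K562 (log2 fold change -1.27 ± 0.10 (SE), adjusted p = 8.62e-10). The granule genes PF4 and PPBP did not pass the filter. A gene that passed the filter through 1 group alone was more apt to differ, so counts over tested members are descriptions.

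Genes of myeloid cells and of mast cells or basophils were also present at low levels. Of 10 monocyte and macrophage genes tested, from 30 listed, 9 were higher and 0 lower, with a median of 1.03. TYROBP, a signalling adaptor of myeloid receptors, had 2.09, 2.04 and 2.09 CPM in resistant 1 and 0.206, 0.124 and 0.105 CPM in K562 (log2 fold change 3.83 ± 0.38 (SE), adjusted p = 1.74e-08). SPI1, the myeloid transcription factor PU.1, had 19.0, 22.4 and 20.5 CPM in resistant 1 and 5.97, 6.51 and 8.17 CPM in K562 (log2 fold change 1.58 ± 0.11 (SE), adjusted p = 9.53e-11), and ITGAM, the alpha M integrin, had 4.60, 4.62 and 4.32 CPM in resistant 1 and 0.755, 1.61 and 1.42 CPM in K562 (log2 fold change 1.83 ± 0.21 (SE), adjusted p = 2.11e-07). The summed level of all 30 listed genes was 267 to 276 CPM in resistant 1, 146 to 153 CPM in K562 and 3923 to 4168 CPM in OCI-AML3 parental libraries. The defining markers CD14 and CSF1R did not pass the filter. The genes picked above for 0 counts in K562 summed to under 0.1% of their OCI-AML3 level in resistant 1. That set is another one, and the source of the monocyte and macrophage transcripts was not tested. Of 9 mast cell and basophil genes tested, 4 were higher, led by PRG2, the eosinophil major basic protein (1.90 ± 0.080), and 4 lower, led by the monoamine carrier SLC18A2 (-1.55 ± 0.28) and histidine decarboxylase HDC (-1.09 ± 0.33).

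The cholesterol pathway was lower along nearly its whole length. All 22 enzymes listed were tested, and 16 were lower (72.7%, beside 28.5% of all genes) and 2 higher, with a median log2 fold change of -0.27. In the highest sixth of genes by level 50.8% of all genes were lower, and in the sixth below it 40.3%. Each fall among the enzymes was under 2-fold. CYP51A1, which removes a methyl group from lanosterol, had 167, 156 and 175 CPM in resistant 1 and 286, 322 and 296 CPM in K562 (log2 fold change -0.84 ± 0.050 (SE), adjusted p = 6.7e-12). LSS, which closes the sterol rings to form lanosterol, had 68.4, 75.2 and 71.4 CPM in resistant 1 and 129, 124 and 124 CPM in K562 (log2 fold change -0.80 ± 0.050 (SE), adjusted p = 1.39e-11). No library of resistant 1 reached the lowest K562 library for either gene.

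Of the early steps, ACAT2 (-0.52 ± 0.042) and MVK (-0.52 ± 0.076) were among the 4 greatest falls. HMGCS1 (-0.31 ± 0.042), which makes the precursor of mevalonate, was lower too. Of the late steps, DHCR7 (-0.38 ± 0.045), a sterol reductase, was lower. HMGCS1, DHCR7 and SQLE are named for their place in the pathway after their values were seen. SQLE, the epoxidase just before LSS, was an exception, at 0.17 ± 0.042 and called higher. TM7SF2, at 0.26 ± 0.092, was called higher too, but not under every alternative. The enzymes together summed to 2748 to 2791 CPM in resistant 1, 3416 to 3519 CPM in K562 and 1935 to 1981 CPM in OCI-AML3 parental libraries. Genes at these levels lay in the part of the range where falls were common, with a median of -0.11 in the highest sixth of genes by level.

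Sensors and carriers of sterols followed the enzymes. Of 16 tested, 9 were lower and 3 higher, with a median of -0.23. INSIG1, which retains the SREBP escort in the endoplasmic reticulum and is itself an SREBP target, had 216, 206 and 204 CPM in resistant 1 and 366, 387 and 378 CPM in K562 (log2 fold change -0.83 ± 0.042 (SE), adjusted p = 3.63e-13). LRP8 (-0.53 ± 0.064) and the lysosomal cholesterol exporter NPC1 (-0.43 ± 0.055) were lower, whereas NPC2, which hands cholesterol to NPC1, had 12.4, 13.6 and 10.7 CPM in resistant 1 and 5.76, 6.01 and 6.48 CPM in K562 (log2 fold change 1.03 ± 0.12 (SE), adjusted p = 1.62e-07). MYLIP, a ubiquitin ligase (0.33 ± 0.062), and INSIG2 (0.29 ± 0.091) were higher. SREBF2, the main SREBP gene of the pathway, stood at -0.068 ± 0.044 and was not called.

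Efflux genes leaned upward, with 6 higher and 1 lower of 9 tested, and a median of 0.44. APOE, an acceptor of cellular cholesterol, had 155, 162 and 142 CPM in resistant 1 and 65.5, 65.2 and 64.7 CPM in K562 (log2 fold change 1.25 ± 0.053 (SE), adjusted p = 2.22e-14). Its neighbour on the chromosome APOC1 (0.86 ± 0.061), the transporter ABCA2 (1.18 ± 0.078) and the lipid transfer protein PLTP (0.49 ± 0.092) were higher. The exporters ABCA1 and ABCG1 did not pass the filter.

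LSS and INSIG1, both among the greatest falls of their lists, are shown, chosen after motif matches were seen, because sterol promoters are known to join SREBP with the CCAAT-binding factor NF-Y. The 250 bases before the start are RefSeq's on GRCh38.p14, LSS from chr21:46228775-46229024, minus strand, and INSIG1 from chr7:155297628-155297877, plus strand. Capitals mark CCAAT or its complement ATTGG.
LSS: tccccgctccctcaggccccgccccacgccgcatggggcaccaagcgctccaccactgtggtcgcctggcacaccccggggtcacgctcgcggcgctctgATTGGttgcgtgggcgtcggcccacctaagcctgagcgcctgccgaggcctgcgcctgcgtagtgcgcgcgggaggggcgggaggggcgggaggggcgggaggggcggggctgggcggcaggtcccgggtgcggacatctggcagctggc
INSIG1: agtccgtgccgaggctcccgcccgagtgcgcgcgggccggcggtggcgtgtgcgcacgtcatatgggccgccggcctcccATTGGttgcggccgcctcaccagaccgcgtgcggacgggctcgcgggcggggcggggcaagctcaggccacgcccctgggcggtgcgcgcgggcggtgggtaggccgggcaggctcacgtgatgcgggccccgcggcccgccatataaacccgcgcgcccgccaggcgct
Each held 1 run, both in the ATTGG form, with the first base 150 bases before the start in LSS and 170 in INSIG1. CCAAT or ATTGG was found in 15 of the 17 tested synthesis genes that the table lists, in any promoter of the gene, and in 37.0% of all genes of the table counted the same way. ACAT2 is named only. The match is to letters alone and is a description.

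**Figure D3:**
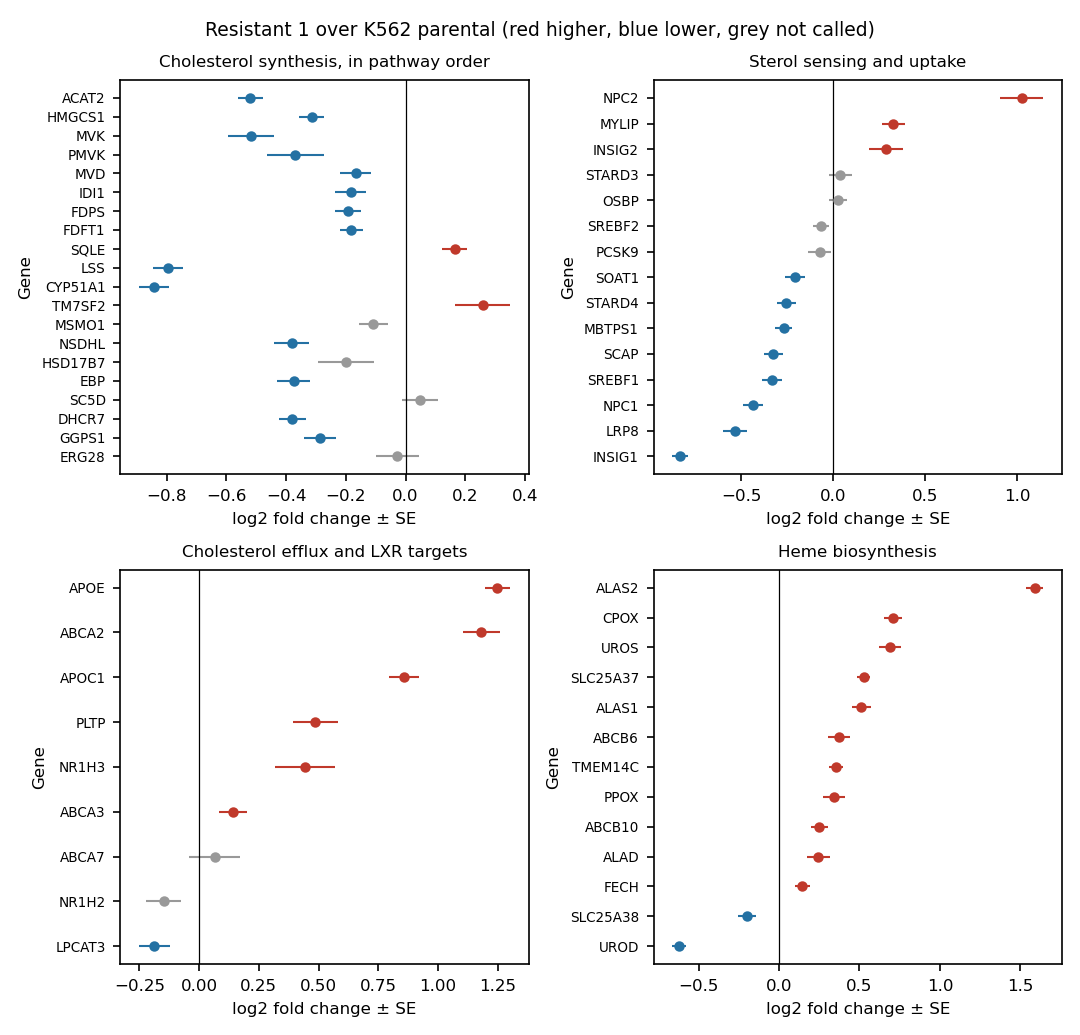
Log2 fold changes of resistant 1 over K562 parental with SE bars for the tested members of 4 lists that are reported here; cholesterol synthesis runs from ACAT2 at the top in pathway order and the other panels are sorted. Most synthesis and sensing genes lie left of 0 and most efflux and heme genes right of it, with SQLE, TM7SF2, NPC2, LPCAT3 and UROD among the exceptions.

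Other lipid and membrane genes did not share 1 direction. Fatty acid genes were even, 8 higher and 8 lower of 18 tested: the SREBP targets FADS2 (-0.48 ± 0.061), FASN (-0.46 ± 0.048) and ACLY (-0.34 ± 0.040) were lower, and ELOVL2, ELOVL7 (0.84 ± 0.086) and ACACB (0.63 ± 0.16) higher. Sphingolipid genes held 13 higher and 7 lower of 30; B4GALT6, a lactosylceramide synthase, had 1.90, 2.25 and 1.96 CPM in resistant 1 and 0.686, 0.620 and 0.580 CPM in K562 (log2 fold change 1.71 ± 0.27 (SE), adjusted p = 1.36e-05), and the ceramide synthase CERS1 (2.40 ± 0.37) and sphingomyelinase SMPD3 (1.43 ± 0.35) were higher as well. ST3GAL5, which makes the ganglioside GM3, was higher (1.08 ± 0.11), as were ST3GAL1 (1.00 ± 0.080) and ST6GAL1 (0.54 ± 0.042), and of 18 sialic acid genes 11 were higher and 1 lower.

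Proteoglycan genes with large rises were CHST3, a chondroitin sulfotransferase (2.90 ± 0.32), the core protein CSPG4 (2.00 ± 0.32) and the syndecan SDC2 (1.21 ± 0.17), within a list of 29 with 12 higher and 5 lower. Among phosphatidylserine flippases and scramblases, 5 of 17 were higher and 6 lower; the scramblase gene PLSCR4 (2.24 ± 0.46) and the flippase ATP10D (1.47 ± 0.41; not called without resistant 1 replicate 1, at 1.12) were higher, and the phosphatidylserine synthases PTDSS1 (-0.36 ± 0.045) and PTDSS2 (-0.35 ± 0.062) lower. Membrane repair genes were mostly not called, with 4 higher and 7 lower of 25. Within them, annexin A6 (ANXA6) had 31.1, 31.0 and 28.9 CPM in resistant 1 and 9.88, 10.7 and 9.91 CPM in K562 (log2 fold change 1.60 ± 0.082 (SE), adjusted p = 4.98e-13). Of 30 lysosomal genes, 9 were higher, led by acid alpha glucosidase GAA (1.22 ± 0.21) and the regulator TFEB (1.00 ± 0.19), and 11 lower, led by LAMP1 (-0.64 ± 0.049).

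More growth factor receptors were higher than lower. Of 20 tested, 13 were higher (65.0%, beside 31.3% of all genes) and 4 lower, with a median of 0.33. In the lowest and next sixth of genes by level, 39.0% and 42.0% of all genes were higher. The summed level of all 29 listed receptors was not higher, at 834 to 875 CPM in resistant 1 and 897 to 932 CPM in K562. ERBB3, a receptor for neuregulins, had 25.8, 23.7 and 23.8 CPM in resistant 1 and 6.88 to 7.27 CPM in the 3 K562 libraries (log2 fold change 1.81 ± 0.091 (SE), adjusted p = 4.13e-13). The beta chain of the receptors for IL-3 and GM-CSF, CSF2RB, had 3.27, 4.88 and 4.19 CPM in resistant 1 and 1.03, 0.682 and 0.422 CPM in K562 (log2 fold change 2.58 ± 0.27 (SE), adjusted p = 4.21e-08). TGFBR2 (2.47 ± 0.31) and its coreceptor ENG (2.87 ± 0.39) were higher from low levels, and the leptin receptor LEPR was lower (-0.79 ± 0.053). EPOR, the erythropoietin receptor, stood at 0.072 ± 0.087 and was not called.

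CD36, the fatty acid and thrombospondin receptor, showed the deepest fall of the adhesion list, with 0.332, 0.268 and 0.338 CPM in resistant 1 and 6.25, 5.89 and 6.48 CPM in K562 (log2 fold change -4.27 ± 0.24 (SE), adjusted p = 1.86e-12). OCI-AML3 libraries held 141 to 154 CPM of it, so resistant 1 was below both lines. The leukocyte integrin chains ITGB2 (2.00 ± 0.43) and ITGB7 (1.91 ± 0.21) and the tetraspanin CD82 (2.06 ± 0.11) were higher, and the tetraspanin CD151 lower (-0.68 ± 0.068); 9 of 20 were higher and 4 lower. Matrix genes held 9 higher, among them the inhibitor TIMP3 (2.69 ± 0.24), and 1 lower, SPARC (-1.13 ± 0.083), of 21 tested. The shares higher were thus 45.0% for adhesion and 42.9% for matrix genes. Among all genes of the lowest sixth by level 39.0% were higher and 10.6% lower, and of the next sixth 42.0% and 14.4%. Both lists were near these shares on the higher side.

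Targets of MAP kinase signalling were divided, with 11 higher and 11 lower of 27 tested. FOS had 1.99, 2.25 and 1.28 CPM in resistant 1 and 5.08, 3.29 and 4.53 CPM in K562 (log2 fold change -1.17 ± 0.21 (SE), adjusted p = 6.33e-05), and FOSL1 (-0.53 ± 0.083) and IER2 (-0.53 ± 0.054) were lower with EGR1. SPRY1, a feedback inhibitor (2.26 ± 0.29), PHLDA1 (1.54 ± 0.16), FOSL2 (1.30 ± 0.22) and cyclin D1, CCND1 (1.24 ± 0.063), were higher. Most genes of the BCR-ABL1 and STAT5 axis were not called: 4 of 19 were higher, led by PIM1 (0.60 ± 0.038), and 2 lower, STAT5A (-0.43 ± 0.040) and SOCS2 (-0.41 ± 0.049). BCR stood at 0.037 ± 0.047 and MYC at 0.019 ± 0.040, neither called.

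Genes of inflammatory signalling and antigen presentation were higher in part. Of 14 antigen presentation genes tested, 10 were higher (71.4%) and 1 lower, with a median of 0.46. PSMB9, an immunoproteasome subunit, had 6.40, 7.19 and 7.77 CPM in resistant 1 and 1.10, 0.992 and 1.32 CPM in K562 (log2 fold change 2.63 ± 0.18 (SE), adjusted p = 7.75e-11). TAP1, which feeds peptides to class I molecules, had 19.9, 22.0 and 19.6 CPM in resistant 1 and 7.07, 6.63 and 7.43 CPM in K562 (log2 fold change 1.56 ± 0.098 (SE), adjusted p = 1.49e-11), and HLA-E, a ligand of natural killer receptors, had 60.9, 64.0 and 59.7 CPM in resistant 1 and 31.7, 29.3 and 32.4 CPM in K562 (log2 fold change 1.00 ± 0.061 (SE), adjusted p = 9.63e-12). The classical class I gene HLA-B did not pass the filter, and HLA-C, at -0.49 ± 0.24, was not called. PSMB10, another immunoproteasome subunit, was lower (-0.59 ± 0.12).

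Interferon-stimulated genes held 10 higher (43.5%) and 1 lower of 23 tested, from 39 listed. The share higher was near the 39.0% and 42.0% of all genes in the lowest and next sixth by level. IFIH1, the RNA sensor MDA5, had 7.35, 6.44 and 6.01 CPM in resistant 1 and 1.65, 2.60 and 1.90 CPM in K562 (log2 fold change 1.71 ± 0.17 (SE), adjusted p = 2.97e-08), and IFI6 (1.25 ± 0.24) and IFITM3 (1.17 ± 0.058) were higher. MX1 and OAS1, classical members, did not pass the filter. Of 26 NF-kB genes, 12 were higher and 7 lower. BIRC3, an inhibitor of apoptosis, had 5.59, 5.26 and 6.69 CPM in resistant 1 and 1.03, 1.30 and 1.32 CPM in K562 (log2 fold change 2.25 ± 0.19 (SE), adjusted p = 1.83e-09); TRAF1 (2.16 ± 0.44) and BCL3 (1.02 ± 0.28) were higher, while the chemokine CXCL2 (-1.61 ± 0.30) and the subunit NFKB1 (-0.88 ± 0.066) were lower. Complement C3 had 11.1, 11.5 and 11.3 CPM in resistant 1 and 2.54, 2.11 and 2.11 CPM in K562 (log2 fold change 2.35 ± 0.14 (SE), adjusted p = 4.49e-12), and CFI, which cuts C3b, was lower (-1.24 ± 0.29). Ligands of natural killer receptors included ULBP2 (1.30 ± 0.27) and ULBP1 (1.16 ± 0.16), both higher, and NCR3LG1, lower (-0.79 ± 0.055).

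Housekeeping machinery showed small shifts in which many members took 1 direction. Of 31 proteasome genes, 20 were lower (64.5%) and 4 higher, with a median of -0.15; PSMB2 had the greatest fall, with 289, 298 and 291 CPM in resistant 1 and 452, 438 and 459 CPM in K562 (log2 fold change -0.60 ± 0.039 (SE), adjusted p = 2.78e-11). In the unfolded protein response 12 of 24 were lower and 3 higher, with PDIA4 (-0.52 ± 0.041) at the low end. Heat shock genes held 8 lower, HSPB1 (-0.47 ± 0.064) foremost, and 2 higher of 22. These 3 lists hold abundant transcripts, where falls were the more common direction: in the highest sixth by level 50.8% of all genes were lower and 18.5% higher.

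The cell cycle lists differed. Of 30 genes of G2 and M phase, 19 were higher (63.3%) and 2 lower, with a median of 0.20. Of 33 replication genes, 5 were higher (15.2%) and 15 lower (45.5%), with a median of -0.084. The replication list summed to 6070 to 6154 CPM in resistant 1. In the highest sixth of genes by level, 18.5% of all genes were higher and 50.8% lower, with a median of -0.11. The replication shares were thus near that background. NUSAP1, a spindle protein, had 298, 277 and 287 CPM in resistant 1 and 190.2, 203 and 199 CPM in K562 (log2 fold change 0.56 ± 0.044 (SE), adjusted p = 5.32e-10), and TYMS, thymidylate synthase, was at -0.36 ± 0.040. Replication-dependent histone genes held 18 higher and 4 lower of 33; their mRNAs lack poly(A) tails, and an mRNA library catches them only in part, with reads shared between near-identical copies. Among p53 targets, 9 of 23 were higher (39.1%), such as BTG2 (1.11 ± 0.067) and FDXR (1.02 ± 0.064), and 4 lower (17.4%). K562 is known to lack working p53. Of 25 apoptosis genes, 9 were higher (36.0%) and 8 lower (32.0%), near the 31.3% and 28.5% of all genes. BMF (1.71 ± 0.19) and BCL2 (0.84 ± 0.21) were among the higher. The death receptor TNFRSF1A (-0.52 ± 0.073) and XIAP (-0.40 ± 0.049) were among the lower.

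Metabolic lists were mixed. In glycolysis and the hypoxia response, 19 of 38 were higher and 11 lower: the enzyme ENO1 had 1523, 1603 and 1508 CPM in resistant 1 and 2403, 2395 and 2453 CPM in K562 (log2 fold change -0.63 ± 0.037 (SE), adjusted p = 4.57e-12), while the lactate exporter SLC16A3 (1.56 ± 0.31) and the kinase PDK3 (1.22 ± 0.17) were higher. NRF2 targets held 13 lower and 10 higher of 33. AKR1B1, aldose reductase, had 0.806, 0.483 and 0.473 CPM in resistant 1 and 6.52, 6.08 and 6.69 CPM in K562 (log2 fold change -3.38 ± 0.21 (SE), adjusted p = 1.77e-11), and AKR1C3 had 1.66, 1.18 and 1.35 CPM in resistant 1 and 7.21, 6.70 and 7.54 CPM in K562 (log2 fold change -2.32 ± 0.17 (SE), adjusted p = 2.25e-10), with near copies in the AKR1C family that may share its reads. Amino acid genes under ATF4 held 15 higher and 9 lower of 31, with PHGDH (0.94 ± 0.066) and ASNS (0.91 ± 0.23) higher and the leucine carrier SLC7A5 lower (-0.51 ± 0.043). ABCB1, the drug efflux pump P-glycoprotein, had 8.77, 8.91 and 9.80 CPM in resistant 1 and 21.3, 26.8 and 23.2 CPM in K562 (log2 fold change -1.37 ± 0.098 (SE), adjusted p = 1.43e-10), and the other drug transporters tested held 5 higher and 1 lower. Ribosomal proteins (15 higher and 7 lower of 44) and oxidative phosphorylation (7 and 9 of 38) held 22 genes each that were not called.

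Germ cell antigens, which K562 makes in quantity, were more often lower. Of 20 tested, 11 were lower and 6 higher, with a median of -0.25. After CTAG2 and PAGE1 came GAGE1 (-0.87 ± 0.063) and MAGEC2 (-0.55 ± 0.048); DCAF4L2, MAGEA4 (1.76 ± 0.48), VCX (0.93 ± 0.13) and VCX3A (0.89 ± 0.14) were higher. Counts of GAGE, CTAG, VCX and MAGEA genes are uncertain, since each family holds near-identical copies. The list summed to 2554 to 2563 CPM in resistant 1 and 2627 to 2669 CPM in K562, and to at most 0.654 CPM in OCI-AML3 parental libraries. Among oncofetal genes HMGA2, a chromatin protein of early development, had 3.51, 4.51 and 4.39 CPM in resistant 1 and 0.343, 0.310 and 0.316 CPM in K562 (log2 fold change 3.66 ± 0.27 (SE), adjusted p = 2.73e-10), and LIN28B was lower (-0.57 ± 0.047).

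**Figure D4:**
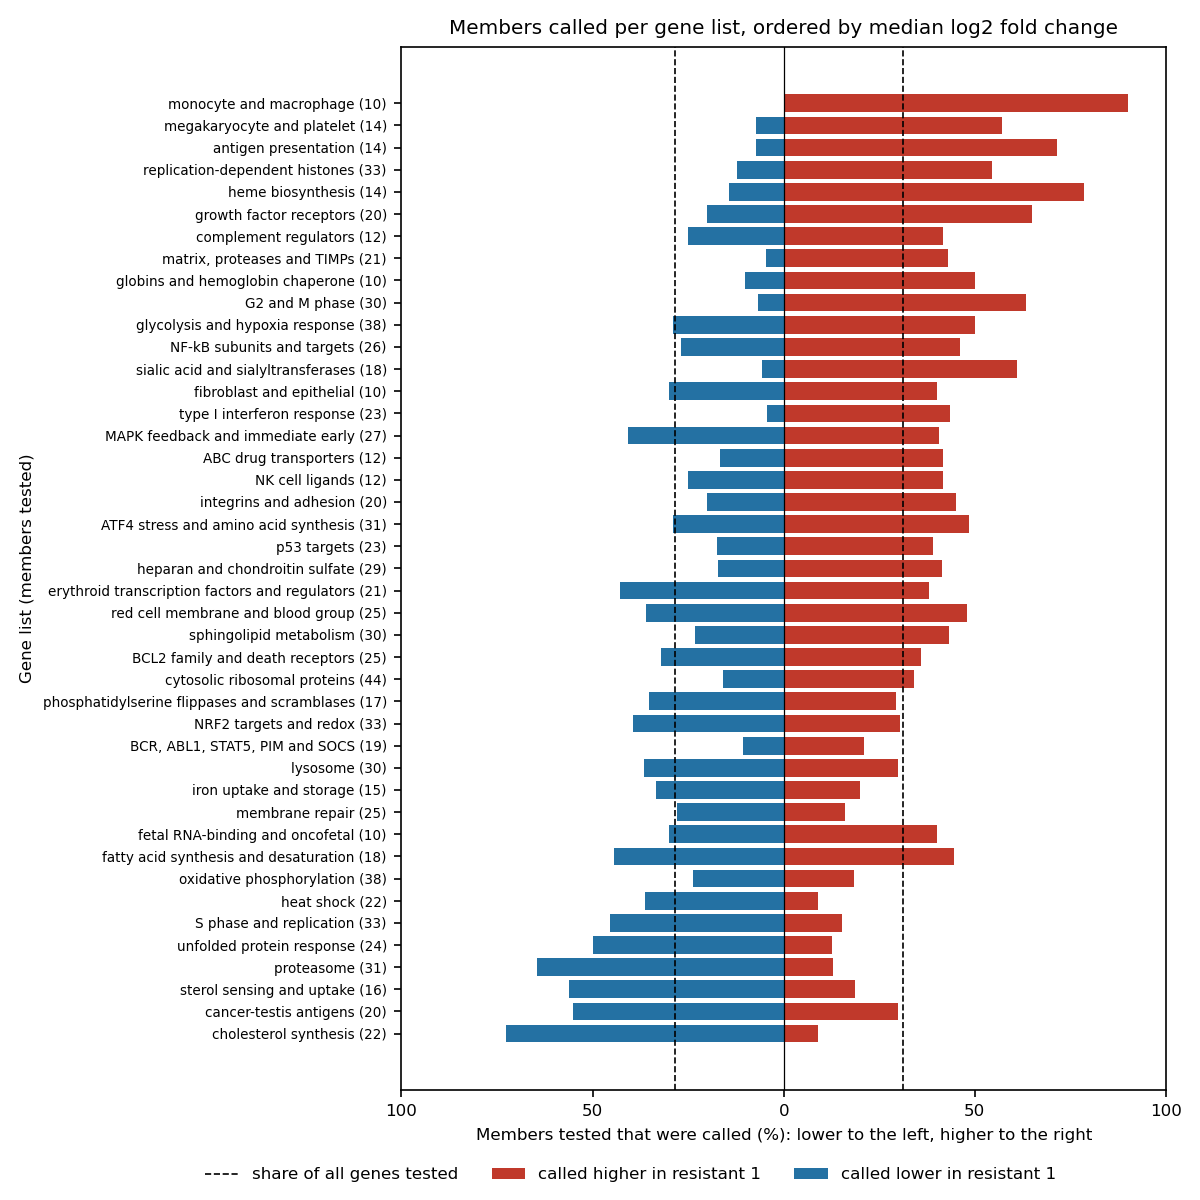
For each gene list with at least 10 members tested, the share called higher in resistant 1 (red, to the right) and called lower (blue, to the left), in percent of members tested, ordered by median log2 fold change from high at the top. Dashed lines mark 31.3% and 28.5%, the shares of all genes tested, and cholesterol synthesis stands at the bottom with 72.7% lower.

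OCI-AML3 levels divided the tested genes into 698 at least 4-fold above K562, 1040 at least 4-fold below it and 11268 between. The division uses the K562 level of the comparison itself, so it is given as a description. In the OCI-AML3-high class, 460 genes were higher in resistant 1 (65.9%) and 61 lower (8.74%). In the OCI-AML3-low class, 433 were higher (41.6%) and 313 lower (30.1%). Of all genes tested, 31.3% were higher and 28.5% lower. By level, the lowest sixth of all genes held 39.0% higher and 10.6% lower, and the next sixth 42.0% and 14.4%. The higher genes of the first class included CORO1A, an actin regulator of leukocytes, with 11.6, 12.7 and 11.2 CPM in resistant 1, 1.78, 1.61 and 1.53 CPM in K562 and 391 to 523 CPM in OCI-AML3, and TNS1, a tensin, with 29.6, 32.4 and 29.7 CPM in resistant 1, 4.87, 3.53 and 4.27 CPM in K562 and 47.9 to 59.5 CPM in OCI-AML3. For CORO1A the resistant 1 level was thus far nearer to K562 than to OCI-AML3, whereas for TNS1 it was by fold nearer to OCI-AML3. The lower genes of that class went away from OCI-AML3, such as SPTAN1, alpha spectrin of non-erythroid cells, with 16.4, 15.7 and 15.7 CPM in resistant 1 and 36.7, 32.0 and 32.3 CPM in K562 (log2 fold change -1.06 ± 0.077 (SE), adjusted p = 1.7e-10). In the list of homeobox and 9p genes chosen for OCI-AML3, 11 of 25 were at 0 counts in resistant 1 and 13 in K562. Of the 8 that passed the filter, 3 were higher (37.5%, beside 31.3% of all genes) and 0 lower. The list summed to 161 to 169 CPM in resistant 1, 155 to 171 CPM in K562 and 954 to 994 CPM in OCI-AML3 parental libraries.

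Fold changes were not spread evenly along the chromosomes, placed here by gene symbol on hg38. The shares over all genes were 31.3% higher and 28.5% lower, with a median of 0.011. On chromosome 14, 208 of 390 tested genes were higher (53.3%) and 65 lower (16.7%), with a median of 0.21. Chromosome 7 was the reverse, with 125 higher (21.04%) and 269 lower (45.3%) of 594 and a median of -0.16. Chromosomes 5 (216 higher and 86 lower of 516, 41.9% and 16.7%) and 6 (263 and 128 of 641, 41.03% and 19.97%) leaned upward. Chromosomes 4 (98 and 158 of 421, 23.3% and 37.5%) and 18 (40 and 61 of 156, 25.6% and 39.1%) leaned downward. So did chromosome 12 (160 and 264 of 662, 24.2% and 39.9%). Medians were small, at 0.11 for chromosome 5, 0.094 for 6, -0.095 for 4, -0.088 for 18 and -0.083 for 12.

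The run of 20 tested genes with the highest median lay on chromosome 11, chr11:35138882-45813016, from CD44 to SLC35C1. Its median log2 fold change was 1.12, and 18 genes were higher and 0 lower. TSPAN18, a tetraspanin, had 9.24, 9.82 and 9.93 CPM in resistant 1 and 0.343, 0.248 and 0.422 CPM in K562 (log2 fold change 4.80 ± 0.21 (SE), adjusted p = 5.28e-14); ALX4 (2.78 ± 0.12) and CD44 completed its 3 greatest changes. A longer stretch around it, from EIF3M to CRY2 (chr11:32583798-45883248), whose bounds were set after the values were seen, held 38 tested genes, 33 higher and 2 lower, with a median of 0.86. The 30 genes before it had a median of -0.17, the 30 after it 0.036, and the rest of the chromosome -0.042. On the short arm of the same chromosome, chr11:6448613-8714759 was the run with the lowest median, -0.52, with 13 genes lower and 0 higher, including CYB5R2 (-1.91 ± 0.16).

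The next 2 runs with high medians were both on chromosome 19 and made mainly of zinc finger genes, 18 and 17 of 20 by symbol. At chr19:36682636-37817300 the median was 0.84 and 19 genes were higher, led by ZNF568 (2.44 ± 0.51) and HKR1 (1.71 ± 0.28). At chr19:57191500-57717301 it was 0.71 and 17 were higher, led by AURKC (2.42 ± 0.15), a kinase of meiosis, and ZNF419 (1.58 ± 0.21). Over the whole chromosome, 121 of 214 genes with a ZNF symbol were higher and 21 lower, with a median of 0.31. Other genes of the chromosome (225 higher and 216 lower of 739, median 0.0042) and ZNF genes of other chromosomes (69 and 55 of 230, median 0.057) stood nearer to all genes. This set was chosen after the runs were seen. The other low runs were chr18:23503496-35497979, with a median of -0.47 and DSG2 and NPC1 within it, and chr1:35268709-37554293, with a median of -0.47, 16 genes lower and 2 higher, PSMB2 among the lower.

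**Figure D5:**
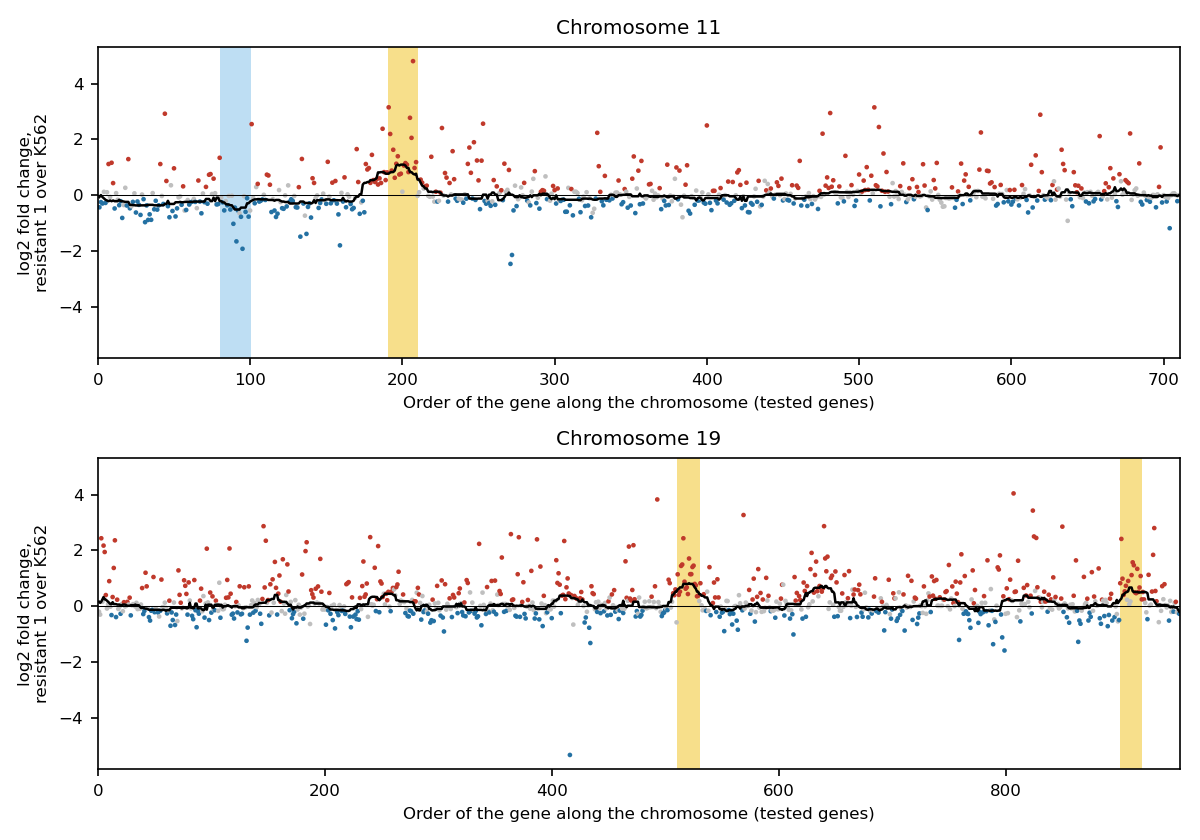
Log2 fold change of resistant 1 over K562 parental for each tested gene in its order along chromosome 11 (710 genes) and chromosome 19 (953 genes), with red called higher, blue called lower, grey not called and the black line a running median. Yellow bands mark the runs of 20 genes with high medians and the blue band the one with the lowest.

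Some genes were seen in 1 group alone; these were picked after their values were seen. MTUS1, a microtubule-associated tumour suppressor candidate, had 75, 49 and 48 counts in the resistant 1 libraries and 0 in K562, at least 52.3-fold higher against a floor of 3 counts over the group. LINC02212 had 67 counts over the resistant 1 libraries and 0 in K562, at least 20.5-fold higher. In reverse, ZNF804A had 0 counts in resistant 1, against 26, 34 and 29 in K562, at least 31.2-fold lower, and FAM95A had 0 in resistant 1, against 80 in K562, at least 28.1-fold lower. ZNF804A was present in OCI-AML3 parental libraries at a mean of 6.40 CPM and MTUS1 at 0.708 CPM, and LINC02212 and FAM95A were at 0 there. MTUS1 averaged 0.618 CPM in the vehicle libraries. These bounds cover counting error only.

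Batch 2 held libraries of resistant 1 and of a second resistant group, resistant 2, and none of K562. Levels of these libraries, scaled within batch 2, can only be set beside the K562 levels of batch 1. All 12 of the top higher genes had batch 2 means above the K562 mean in resistant 1 and in resistant 2, and 11 of the 12 top lower genes had means below it in each. These genes were picked by their difference from the same K562 libraries, and the share over all genes was not counted. The counts are therefore descriptions. CD44 was at 73.5 to 108 CPM in resistant 1 and 269 to 342 CPM in resistant 2 of batch 2, and NEO1 was at 80.3 to 139 CPM in resistant 1 and 156 to 246 CPM in resistant 2. SLC4A1 was less far from K562 there, at 8.82 to 14.9 CPM in resistant 1 and 3.73 to 5.74 CPM in resistant 2. The resistant 2 range overlapped that of the K562 libraries. EGR1 varied widely between libraries, at 19.7 to 107 CPM in resistant 1 and 94.9 to 271 CPM in resistant 2. AQP1 averaged 6.40 CPM in resistant 1 and 6.85 CPM in resistant 2 of batch 2, beside 67.2 CPM in resistant 1 and 8.40 CPM in K562 of batch 1, so neither batch 2 mean was above the K562 mean. ALAS2, at 31.9 and 30.1 CPM, was likewise below the K562 mean of 39.3 CPM, whereas INSIG1, at 202 and 111 CPM, and LSS, at 34.0 and 31.6 CPM, were below theirs of 377 and 126 CPM as in batch 1. Batch and line cannot be told apart in these values, and they were not tested.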

How the data were processed

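Messenger RNA was sequenced from strand-specific libraries, per the labels' protocols. The authors deposited raw counts per gene symbol, 1 table per batch. Per the submitters' processing notes, the build was hg38, and DESeq2 1.22.1 was named. Not given in the sources used here were aligner version, annotation and strand setting. All columns had a sample (0 without). All values were checked to be whole and at least 0.

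The 6 libraries were fitted with edgeR 4.0.16 in R 4.3.3 (filterByExpr, TMM, robust quasi-likelihood F tests, two-sided, Benjamini-Hochberg adjustment over 13006 genes). A gene was called at an adjusted p under 0.05. CPM are on the TMM scale of the 12 batch 1 libraries. The fit was tested on simulated data. Alternatives were other scalings, DESeq2 1.42.0, other filters, a 12-library fit, a replicate block, a test against a 1.5-fold change and leaving out each library.

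Genes named were the 12 higher and 12 lower of at least 10 CPM, the 6 and 6 of at least 100 CPM, up to 4 each way per list, 6 each way per OCI-AML3 class and 3 per run, by greatest change among called genes with groups apart (lists and runs whatever their level). Members and lists were chosen with earlier results of these data known. Of 51 lists, the mitochondrially encoded genes had 0 members in the table. Positions matched 25088 of 28008 symbols on hg38. Promoters are RefSeq's. Some members of the lists are counted in their totals but not reported here by name.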

Additional observations from a re-analysis of the deposited data

How the results depend on the processing

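Under the 14 alternatives, 0 of the named genes changed sign. Of 5176 values of named genes, 350 in 213 genes lost their call, most of them under the test against a 1.5-fold change. Among those in the text, TM7SF2 also lost its call with DESeq2 and without K562 replicate 3 or resistant 1 replicate 2, LPCAT3 with upper quartile scaling and without replicate 3 of either group, and ATP10D without resistant 1 replicate 1. The test against 1.5-fold left 1310 calls, 1085 higher and 225 lower. Of the genes in the text that changed by more than 1.5-fold, ATP10D, HDC, BCL3, TFEB, ASNS, BCL2, ZFPM1, UROS, CD151, LAMP1, ACACB, ENO1, UROD, PIM1, PSMB2 and PSMB10 did not pass it. Genes past 2-fold fell to 413 higher and 45 lower with a filter of at least 5 CPM, which drops genes of low level, and 326 were lower with no low-count filter, over 19593 genes. DESeq2 called 3473 higher and 3476 lower, and upper quartile scaling 4585 higher and 3089 lower. Leaving out 1 library gave 3612 to 3916 higher and 3278 to 3718 lower. Of 1428 list counts, 182 moved by over 1.5 times.

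Replicate numbers did not pair the samples (correlations of same-numbered deviations -0.28, -0.41 and -0.11). With the replicate number as a block, 3770 genes were higher and 3317 lower, 1046 and 198 of them by at least 2-fold; 7070 of the calls were shared and 17 were new.

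Over runs of 40 genes, the medians of the 3 high runs were 0.76, 0.53 and 0.43 and of the 3 low runs -0.20, -0.37 and -0.33. The chromosome 19 run from LINC01534 to ZNF573 moved to 0.82 with DESeq2, 0.51 with at least 5 CPM, 0.82 with the replicate block, 0.89 with upper quartile scaling and 0.74 to 0.95 without 1 library. The low run of chromosome 11 moved to -0.33 with at least 5 CPM. With upper quartile scaling, the low runs of chromosomes 18 and 1 moved to -0.43 and -0.42. Without 1 library these 2 ranged from -0.51 to -0.47 and from -0.47 to -0.43. The cause was not tested. Depth limits genes of low level, where counts are few and folds are imprecise.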
